A study of Caenorhabditis elegans with 24 samples.

Results

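The neuropeptide genes of Caenorhabditis elegans were followed through adulthood in whole worms of 2 strains. They were taken as every protein-coding gene whose symbol is flp or nlp with a number in the annotation of Ensembl release 115. Of 102 such genes, 7 epidermal antimicrobial peptide genes that also carry an nlp symbol were left out. The remaining 95 genes, 31 flp and 64 nlp, were all present among the 46904 gene identifiers of the count tables. The strains were CF1041, which carries daf-2(e1370), a reduced-function allele of the worm's insulin/IGF-1 receptor gene, and N2, the wild type. Each was sampled on days 1, 4, 7 and 11 of adulthood, with 3 libraries a group and 24 in all. Worms of all 8 groups came from bleached embryos, fed on OP50 bacteria and received the DNA synthesis blocker FUDR from the fourth larval stage on, so no group is free of that drug. RNA came from whole bodies, was depleted of ribosomal RNA and was made into stranded libraries. In such bulk samples, fewer cells of a type and less RNA per cell cannot be told apart.

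Neuropeptides are short signalling peptides cut from precursor proteins, carried in dense core vesicles and sensed mostly by G protein-coupled receptors. The flp genes encode precursors of peptides that end in the RFamide motif, and the nlp genes encode precursors of many other peptide families. Most are made in neurons, where they modulate feeding, movement, sleep, egg laying and learning, and some are made in the gut or the epidermis.

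Libraries held between 20660999 and 32655703 expected counts over genes, of which the neuropeptide genes held between 11858 and 22503. The share of ribosomal RNA reached 14.55% in libraries numbered 3 and was at most 9.62% in the other 16. Nothing in the labels tells whether libraries of the same group are separate cultures, and p-values therefore describe only the spread among these samples, possibly a technical one. No gene of the neuronal, epidermal, gut, muscle, pharyngeal and germline marker lists was at 0 over a whole group. Levels are given as CPM, gene counts scaled to a common library size that was corrected with TMM factors. Changes are log2 fold changes with their standard error (SE) from edgeR's quasi-likelihood test, and a change passed at a Benjamini-Hochberg adjusted p under 0.05 over the 16698 genes tested.

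Neuropeptide transcripts were low in whole worms, with nlp-40 as the main exception. The median gene had 1.99 CPM over the 24 libraries (4.04 for flp genes and 1.3 for nlp genes), 62 of the 95 had at least 1 CPM and 11 had at least 10 CPM. The 85 that were high enough to be tested had a median of 2.52 CPM, against 8.06 CPM for all tested genes. These medians are not corrected for length, and the 95 genes are short, with a median of 594 exon bases against 1163 for protein-coding genes. The part of length in that gap was not computed. Gene length matters when levels are set against each other, so the order was taken per kilobase of exon. By that measure nlp-40, an intestinal peptide gene whose product times the expulsion step of defecation, led with 272 CPM per kilobase, and it held 32.9% of all neuropeptide counts. It was followed by nlp-36 with 106 and nlp-24 with 66.4 CPM per kilobase. After these came nlp-39 with 44.2, flp-22 with 41.5, flp-24 with 34.2, flp-14 with 29.6 and flp-1 with 28.3 CPM per kilobase.

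**Figure D1:**
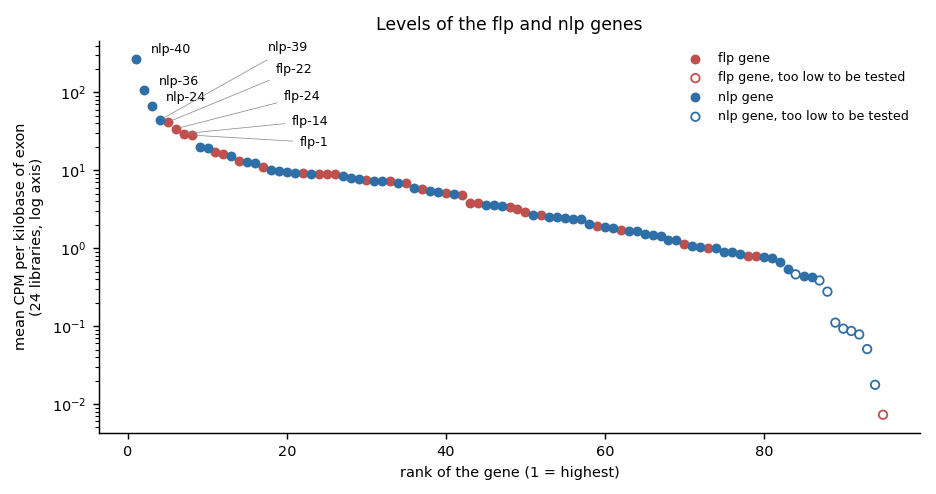
Mean level of each of the 95 neuropeptide genes over 24 libraries, in CPM per kilobase of exon on a log axis, ordered by rank. Filled points are the 85 tested genes and open points the 10 that were too low; nlp-40 stands at 272 CPM per kilobase, above nlp-36 at 106.

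The most abundant neuropeptide gene had no call at any age or between the strains. nlp-40 (WBGene00022276, chromosome I, 11495 to 16837 on WBcel235, plus strand) had 163, 168 and 185 CPM in daf-2 worms at day 11, against 136, 174 and 208 CPM at day 1. In N2 worms it had 118.6, 140.3 and 178 CPM at day 11, against 143, 161 and 219 CPM at day 1. The ages overlapped in both strains, and the change did not pass in daf-2 worms (log2 -0.01 ± 0.18, SE, n = 3 and 3, edgeR adjusted p = 0.971) or in N2 worms (-0.26 ± 0.18, adjusted p = 0.243). The means at days 4 and 7 were higher than both, at 248 and 214 CPM in daf-2 worms and 206 and 223 CPM in N2 worms, and nlp-40 in daf-2 worms at day 4 passed only with the replicate number as a block (adjusted p = 0.0126, or 0.0678 without the block). The second gene, nlp-36, gave values of -0.20 ± 0.16 in daf-2 worms (adjusted p = 0.347) and -0.38 ± 0.16 in N2 worms (adjusted p = 0.069, or 0.0276 with the block). Its exons share 11 bases with dars-1, an aspartyl-tRNA synthetase gene on the other strand that had 294 to 319 CPM in N2 worms at those ages. The libraries are stranded, but the strand setting of the counting is not given in the sources used here.

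At the low end, 10 genes did not pass the filter on low counts: flp-23, nlp-22, nlp-23, nlp-25, nlp-32, nlp-45, nlp-46, nlp-67, nlp-69 and nlp-70. The sleep peptide gene nlp-22 had 4 counts over all 24 libraries, flp-23 had 3 and nlp-32 had 14. The highest of the 10 was nlp-69 with 158 counts. The filter works by group, so nlp-63 with 118 counts in all was still tested, and changes in the 10 are not reported here.

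By chromosome, 32 of the 95 genes (33.7%) lie on X, against 13.6% of protein-coding genes, and 13 of the 32 are flp genes. The neuropeptide genes are also short, with a median of 594 exon bases against 1163 for protein-coding genes. The genes flp-2, flp-3 and flp-28 lie inside W07E11.1 on the opposite strand, and nlp-2, nlp-22, nlp-23 and nlp-45 lie likewise inside T01B6.1. flp-1 lies inside daf-10 and nlp-48 inside rgr-1, again on the opposite strand.

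Between day 1 and day 11, a small set of neuropeptide genes passed in both strains, some of them with large changes, while most members did not pass. In daf-2 worms 13 of 85 rose and 6 fell, and in N2 worms 14 rose and 4 fell. Over all tested genes, 22.2% rose and 18% fell in daf-2 worms, and 22.5% rose and 19.2% fell in N2 worms. The members' shares, 15.3% and 7.06% in daf-2 worms and 16.5% and 4.71% in N2 worms, lay below these, with a median SE of 0.35 and 0.34 beside 0.31 for all tested genes in both strains. With the replicate number as a block, which pairs these libraries, daf-2 worms had 17 rises and 13 falls and N2 worms 23 and 9. Every neuropeptide gene called without the block stayed called. The block also raised the calls over all 16698 tested genes, from 6720 to 9486 in daf-2 worms and from 6959 to 9490 in N2 worms. Counts with the block, here and below, are therefore not to be set beside shares without it. Without N2 day 1 library 2 the falls in N2 worms numbered 9, and without daf-2 day 11 library 2 those in daf-2 worms numbered 3. The split also moved with the scaling, to 16 rises and 3 falls in daf-2 worms and 22 and 3 in N2 worms by library size alone, and to 13 and 7 in N2 worms with RLE factors. Calls over all tested genes, rises and falls together, were 6662 in daf-2 and 7040 in N2 worms by library size alone. With RLE factors they were 6987 in N2 worms. Those with 1 library left out are not given here. The median log2 change of the 85 genes was 0.01 in daf-2 worms and 0.21 in N2 worms, beside 0.09 and 0.10 for all tested genes. A change of at least 2-fold was seen in 14 of the 85 (16.5%) in daf-2 worms and 21 (24.7%) in N2 worms, against 31.9% and 32% of all tested genes.

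Rises in both strains at day 11 were called for 10 genes: flp-5, flp-15, flp-22, nlp-16, nlp-39, nlp-48, nlp-60, nlp-61, nlp-68 and nlp-81. They made up 76.9% of the rises in daf-2 worms and 71.4% of those in N2 worms. Falls in both strains were called for nlp-24, nlp-26 and nlp-58, which were 50% of the falls in daf-2 worms and 75% of those in N2 worms. How far all tested genes shared their calls between the strains was not computed. These shares therefore cannot be called particular to neuropeptide genes. No neuropeptide gene passed in opposite directions in the 2 strains. Of the 10 shared rises, nlp-48, nlp-60 and nlp-68 averaged too little for the naming rule and were singled out after their values were seen.

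**Figure D2:**
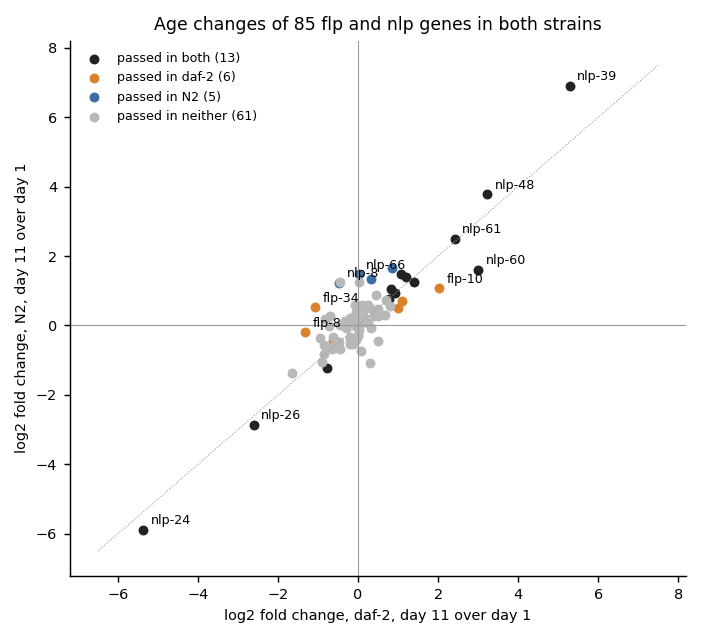
Log2 fold change between day 11 and day 1 of 85 neuropeptide genes, daf-2 worms on the horizontal axis and N2 worms on the vertical axis, with equal change on the dotted line. The 13 genes that passed in both strains (black) include nlp-39 at the upper right and nlp-24 at the lower left, while 61 genes passed in neither (grey).

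The largest rise in both strains belonged to nlp-39 (WBGene00008295, chromosome I, 12461656 to 12461895, plus strand), a gene of 240 exon bases. In daf-2 worms it had 0.219, 0.313 and 0.935 CPM at day 1, 6.01, 11.9 and 10.02 CPM at day 4, 15.9, 16.4 and 23.5 CPM at day 7, and 16.4, 16.5 and 25.98 CPM at day 11. In N2 worms it had 0.168, 0.0413 and 0.265 CPM at day 1, 2.62, 3.27 and 1.70 CPM at day 4, 17.2, 10.8 and 13.9 CPM at day 7, and 24.2, 17.9 and 18.4 CPM at day 11. All 9 later libraries of each strain lay above all 3 day 1 libraries. The rise to day 11 was 39.2-fold in daf-2 worms (log2 5.29 ± 0.45, SE, n = 3 and 3, edgeR adjusted p = 3.29e-08) and 120-fold in N2 worms (6.90 ± 0.52, adjusted p = 4.16e-09). It had already passed at day 4, with log2 changes of 4.22 ± 0.44 in daf-2 worms and 3.91 ± 0.52 in N2 worms. nlp-39 was thus among the low transcripts of day 1 worms and yet had the fourth highest mean level per kilobase over the 24 libraries.

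Next among the genes above 1 CPM was nlp-61 (WBGene00017813, chromosome X, 7627651 to 7628233, plus strand). It had 14.3, 13.1 and 23.7 CPM in daf-2 worms at day 11, against 3.10, 3.02 and 3.48 CPM at day 1. In N2 worms it had 15.6, 19.8 and 19.4 CPM at day 11, against 2.60, 2.73 and 4.27 CPM at day 1. The ages did not overlap in either strain, and the rise was 5.31-fold in daf-2 worms (log2 2.41 ± 0.24, edgeR adjusted p = 2.34e-07) and 5.68-fold in N2 worms (2.51 ± 0.24, adjusted p = 1.14e-07). Each age had a higher mean than the one before it, at 3.2, 9.0, 13.5 and 17.03 CPM in daf-2 worms and 3.2, 6.05, 12.2 and 18.3 CPM in N2 worms at days 1, 4, 7 and 11.

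The gene nlp-48 reached 0.763, 1.77 and 1.43 CPM in daf-2 worms at day 11, against 0.146, 0.104 and 0.161 CPM at day 1, a log2 rise of 3.23 ± 0.50 (edgeR adjusted p = 4.35e-05). In N2 worms it had 0.849, 1.51 and 0.921 CPM at day 11, against 0.0420, 0.0413 and 0.132 CPM at day 1 (3.77 ± 0.55, adjusted p = 1.85e-05). Its host on the other strand, rgr-1, had no call in either strain, with log2 values of -0.39 ± 0.19 in daf-2 worms and -0.45 ± 0.19 in N2 worms. The rise of nlp-60, a gene with at most 1.04 CPM in any library, was 3.0 ± 0.72 in daf-2 worms (adjusted p = 0.00264) and 1.61 ± 0.63 in N2 worms (adjusted p = 0.0448). Its N2 ages overlapped, since day 1 library 3 had 0.463 CPM and day 11 library 2 had 0.419 CPM. That N2 call ended without day 11 library 1 or 3 or day 1 library 1 or 2 (adjusted p up to 0.177).

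Of the flp genes, flp-5, flp-15 and flp-22 rose in both strains by smaller steps. Peptides of flp-5 and flp-15 have been found to act on the pharynx, the worm's feeding organ. flp-5 (chromosome X, 8528250 to 8531076) had 6.39, 4.63 and 7.61 CPM in daf-2 worms at day 11, against 3.53, 2.85 and 2.45 CPM at day 1. In N2 worms flp-5 had 8.37, 7.83 and 8.35 CPM at day 11, against 3.32, 2.40 and 3.01 CPM at day 1. The groups were apart in both strains, with log2 changes of 1.08 ± 0.29 in daf-2 worms (edgeR adjusted p = 0.00602) and 1.49 ± 0.29 in N2 worms (adjusted p = 4.08e-04). flp-15 gave 1.2 ± 0.31 in daf-2 worms and 1.41 ± 0.31 in N2 worms. The most abundant flp gene per kilobase, flp-22, averaged 23.6 CPM in daf-2 worms at day 11, against 13.8 CPM at day 1 (0.78 ± 0.19), and 26.1 against 15.4 CPM in N2 worms (0.76 ± 0.19). None of these 6 calls ended when any single library was left out.

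Among the remaining shared rises, nlp-81 gave log2 0.93 ± 0.28 in daf-2 worms (edgeR adjusted p = 0.0117, or 0.052 without day 11 library 1) and 0.95 ± 0.28 in N2 worms (adjusted p = 0.0103). nlp-16 gave 0.82 ± 0.31 in daf-2 worms (adjusted p = 0.0372, up to 0.18 without day 11 library 1 or day 1 library 2 or 3) and 1.07 ± 0.31 in N2 worms (adjusted p = 0.00829, or 0.0524 without day 1 library 2). nlp-68 gave 1.41 ± 0.40 in daf-2 worms (adjusted p = 0.00901, or 0.0609 without day 11 library 1) and 1.27 ± 0.42 in N2 worms (adjusted p = 0.0192, up to 0.0886 without day 11 library 3 or day 1 library 2 or 3). All 3 genes had day 11 libraries entirely above the day 1 libraries in both strains.

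**Figure D3:**
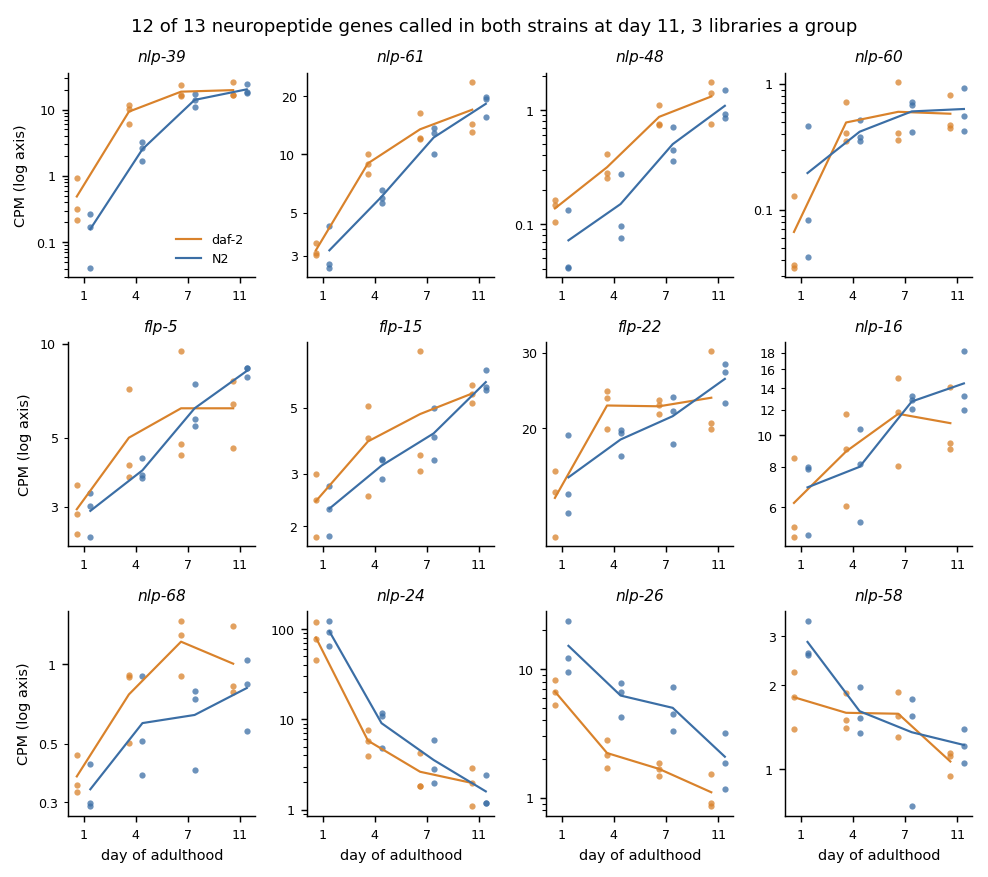
Level in each library (points, CPM on a log axis) and group mean (lines) of 12 of the 13 neuropeptide genes called in both strains at day 11, by day of adulthood, daf-2 worms in orange left of N2 worms in blue. nlp-81 is not drawn; nlp-39 climbs above 10 CPM by day 7 in both strains and nlp-24 drops below 3 CPM by day 11.

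Falls were led by nlp-24 and nlp-26, relatives of the epidermal nlp genes whose precursors hold glycine-rich repeats. nlp-24 (WBGene00003762, chromosome V, 11616376 to 11616828, plus strand) had 1.97, 1.09 and 2.86 CPM in daf-2 worms at day 11, against 77.8, 45.2 and 119.8 CPM at day 1. In N2 worms it had 1.17, 1.17 and 2.44 CPM at day 11, against 93.6, 65.8 and 125 CPM at day 1. Every day 11 library lay far below every day 1 library of its strain. The fall was 41.2-fold in daf-2 worms (log2 -5.37 ± 0.55, SE, n = 3 and 3, edgeR adjusted p = 3.68e-07) and 58.8-fold in N2 worms (-5.88 ± 0.57, adjusted p = 1.19e-07). Most of it was present by day 4, when nlp-24 averaged 5.81 CPM in daf-2 worms and 9.09 CPM in N2 worms. Its exons share 24 bases with glb-15 on the other strand, which rose (1.23 ± 0.38 in daf-2 worms and 1.26 ± 0.39 in N2 worms).

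nlp-26 (WBGene00003764, chromosome V, 19613461 to 19614534, plus strand) had 0.859, 0.913 and 1.54 CPM in daf-2 worms at day 11, against 6.59, 5.28 and 8.22 CPM at day 1. In N2 worms it had 1.87, 1.17 and 3.21 CPM at day 11, against 12.1, 9.55 and 23.9 CPM at day 1. The ages were apart in both strains, with falls of 6.08-fold in daf-2 worms (log2 -2.61 ± 0.41, edgeR adjusted p = 5.10e-05) and 7.22-fold in N2 worms (-2.85 ± 0.40, adjusted p = 1.14e-05). Exons of nlp-26 share 29 bases with Y43F8C.3 on the other strand. That gene rose to 8.46 CPM in daf-2 worms (1.08 ± 0.30) and 10.4 CPM in N2 worms (1.97 ± 0.31) at day 11, above the level of nlp-26. The other relatives kept by the rule, nlp-25 and nlp-32, were too low to be tested. Epidermal marker genes moved beside these falls: the 10 markers summed to 284 CPM in daf-2 worms at day 11, against 2212 CPM at day 1, and to 335 CPM in N2 worms at day 11, against 2643 CPM at day 1. Most of that sum was the adult cuticle collagen col-19 (2117 CPM in daf-2 and 2554 CPM in N2 worms at day 1). Of the 10 markers, 3 fell and 1 rose in daf-2 worms (30% and 10%, beside 18% and 22.2% of all tested genes). In N2 worms 3 of the markers fell and 3 rose (30% and 30%, beside 19.2% and 22.5%). Their part in the falls of nlp-24 and nlp-26 was not tested.

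The third shared fall was that of nlp-58, which encodes tachykinin-like peptides. It averaged 1.07 CPM in daf-2 worms at day 11, against 1.81 CPM at day 1 (log2 -0.77 ± 0.30, edgeR adjusted p = 0.0448), and 1.22 against 2.86 CPM in N2 worms (-1.23 ± 0.29, adjusted p = 0.0023). The N2 call held without any single library. The daf-2 call ended without day 11 library 1, 2 or 3 or day 1 library 1 or 3 (adjusted p up to 0.145), and with upper-quartile scaling (adjusted p = 0.153).

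Fewer neuropeptide genes passed at the earlier ages. At day 4, 4 neuropeptide genes had risen and 2 had fallen in daf-2 worms, beside 4.21% and 5.01% of all tested genes, and 3 had risen and 2 had fallen in N2 worms, beside 3.01% and 6.08%. At that age nlp-24 and nlp-26 had fallen and nlp-39 and nlp-61 had risen in both strains. flp-22 and nlp-60 were the other rises in daf-2 worms, and nlp-56 the other in N2 worms. Several of these early calls ended when 1 library was left out: nlp-26 in daf-2 worms (adjusted p = 0.0706 by edgeR without day 4 library 2), flp-22 in daf-2 worms (up to 0.0991 without day 4 or day 1 library 1 or 2) and nlp-60 in daf-2 worms (up to 0.0849 without day 4 library 3 or day 1 library 1 or 2). In N2 worms nlp-61 lost its call without day 4 library 3 or day 1 library 1 or 2 (up to 0.104), nlp-26 without day 4 library 1 or 2 or day 1 library 1 or 3 (up to 0.203), and nlp-56 without any 1 day 4 library or day 1 library 1 or 2 (up to 0.127). At day 7, 15 had risen and 3 had fallen in daf-2 worms, beside 15.1% and 12.7% of all genes, and 6 had risen and 4 had fallen in N2 worms, beside 12.8% and 13.1%. With the block the rises in daf-2 worms numbered 14 at day 4, among them nlp-40 and flp-1, and 20 at day 7. The share of all tested genes called with the block at these ages is not given here. The 3 age comparisons of a strain share its day 1 libraries, so they are not independent of each other. Over all 6 age comparisons 27 of the 85 genes passed at least once without the block, 8 flp and 19 nlp genes. Without the block 58 passed in no age or strain comparison, although some of these, such as flp-1, flp-11 and nlp-40, passed with it. The matching shares of all tested genes were not computed.

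Some calls at day 11 were made in daf-2 worms but not in N2 worms. The difference between the strains in that change, tested below, did not pass for any neuropeptide gene. flp-10, flp-13 and nlp-3 rose in daf-2 worms. flp-13, whose peptides promote stress-induced sleep, had 4.01, 2.83 and 2.50 CPM in daf-2 worms at day 11, against 2.48, 0.764 and 1.16 CPM at day 1 (log2 1.09 ± 0.35, edgeR adjusted p = 0.0187). That call ended without daf-2 day 11 library 1 or day 1 library 2 or 3 (adjusted p up to 0.108), and the N2 value was 0.71 ± 0.35 (adjusted p = 0.11, or 0.0206 with the block). flp-8, flp-28 and flp-34 fell in daf-2 worms. flp-8, a gene with a role in male mating turns, had 2.04, 1.3 and 2.18 CPM in daf-2 worms at day 11, against 5.76, 3.23 and 4.80 CPM at day 1, with no overlap (-1.32 ± 0.36, adjusted p = 0.00603). In N2 worms flp-8 had 3.13, 2.56 and 4.40 CPM at day 11, against 4.74, 1.98 and 4.76 CPM at day 1, which overlapped (-0.19 ± 0.35, adjusted p = 0.695). flp-28 gave -0.62 ± 0.22 in daf-2 worms (adjusted p = 0.029) and lost its call without day 11 library 2 or 3 or day 1 library 1 or 3 (adjusted p up to 0.0907). The N2 value of flp-28 was -0.44 ± 0.22 (adjusted p = 0.109, or 0.0248 with the block).

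Others were called in N2 worms but not in daf-2 worms. nlp-56 had 6.88, 8.17 and 9.30 CPM in N2 worms at day 11, against 1.39, 3.27 and 5.00 CPM at day 1, with no overlap (log2 1.33 ± 0.38, edgeR adjusted p = 0.00809). In daf-2 worms its values overlapped, at 5.37, 3.54 and 6.54 CPM at day 11, against 2.77, 2.92 and 6.67 CPM at day 1 (0.32 ± 0.37, adjusted p = 0.521). The low genes nlp-8, nlp-66 and nlp-76, singled out after their values were seen, also rose in N2 worms (1.23 ± 0.42, 1.48 ± 0.49 and 1.64 ± 0.56). nlp-8 lost its call without day 11 library 2 or day 1 library 1 or 2 (adjusted p up to 0.1), nlp-66 without day 11 library 2 or day 1 library 1 or 3 (up to 0.0769), and nlp-76 without day 11 library 2 or 3 or day 1 library 1 (up to 0.108). Exons of nlp-76 share 67 bases with nhr-17 on the same strand, so its counts are uncertain. nlp-6 fell in N2 worms to 3.04, 2.68 and 2.88 CPM at day 11, against 3.82, 4.26 and 5.39 CPM at day 1 (-0.65 ± 0.22, adjusted p = 0.0233). The nlp-6 call ended without day 11 library 2 or 3 or day 1 library 3 (adjusted p up to 0.101), and its daf-2 value was -0.47 ± 0.22 (adjusted p = 0.094, or 0.0495 with the block).

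Genes grouped by behaviour were read against the 22.2% of all tested genes that rose in daf-2 worms and the 22.5% in N2 worms at day 11. Of 5 tested sleep peptide genes, flp-13 rose in daf-2 worms and nlp-8 in N2 worms, 20% of the list in each strain, and none fell. The gene of the sleep-inducing peptide of the RIS neuron, flp-11, gave 0.16 ± 0.38 in daf-2 worms and 0.48 ± 0.38 in N2 worms (adjusted p = 0.321 by edgeR, or 0.0115 with the block). nlp-14, which acts in the same sleep neuron as flp-13, rose in daf-2 worms at day 7 (1.16 ± 0.38, adjusted p = 0.026) and not at day 11 (0.50 ± 0.38, adjusted p = 0.299). The day 7 call of nlp-14 ended without day 7 library 1 or 3 or day 1 library 2 or 3 (adjusted p up to 0.11). This gene, too, was singled out after its values were seen.

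Of 4 egg-laying peptide genes, 2 rose in daf-2 worms (50%, beside 22.2% of all tested genes) and none passed in N2 worms. flp-10 encodes an inhibitory ligand of the receptor EGL-6 and was chosen after its values were seen. It had 0.795, 0.766 and 1.00 CPM in daf-2 worms at day 11, against 0.255, 0.104 and 0.258 CPM at day 1 (log2 2.03 ± 0.47, edgeR adjusted p = 0.0018). In N2 worms flp-10 gave 1.07 ± 0.45 (adjusted p = 0.0589, or 0.0373 with the block). nlp-3, which promotes egg laying alongside serotonin, had 7.12, 5.01 and 6.97 CPM in daf-2 worms at day 11, against 4.19, 2.50 and 2.93 CPM at day 1 (0.99 ± 0.30, adjusted p = 0.0123, or 0.0657 without day 1 library 2). Its N2 value was 0.51 ± 0.30 (adjusted p = 0.173). The egg-laying inhibitors flp-17 and nlp-7 gave -0.46 ± 0.28 and -0.65 ± 0.29 in daf-2 worms and -0.69 ± 0.28 and -0.69 ± 0.29 in N2 worms, none of which passed. With the block, nlp-7 passed in daf-2 worms (adjusted p = 0.0117) and both passed in N2 worms (0.0121 for flp-17 and 0.00737 for nlp-7). All groups had received FUDR, which stops the development of progeny.

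Peptides that act on locomotion and aggregation had no call at day 11 without the block. The AVK neuron peptide gene flp-1, which tunes locomotion, averaged 18.4 CPM in daf-2 worms at day 11, against 16.95 CPM at day 1 (0.12 ± 0.30), and 20.3 against 15.1 CPM in N2 worms (0.42 ± 0.30, adjusted p = 0.264 by edgeR, or 0.0353 with the block). nlp-12, a cholecystokinin-like gene, gave -0.06 ± 0.38 in daf-2 worms and 0.40 ± 0.37 in N2 worms. The genes of the NPR-1 receptor ligands, flp-18 and flp-21, gave -0.34 ± 0.22 and -0.06 ± 0.43 in daf-2 worms and 0.12 ± 0.22 and -0.43 ± 0.43 in N2 worms. nlp-47, which encodes a peptide related to gonadotropin-releasing hormone, gave -0.67 ± 0.42 in daf-2 worms (adjusted p = 0.207, or 0.0281 with the block) and -0.62 ± 0.42 in N2 worms (adjusted p = 0.242). flp-6, flp-14 and flp-24, which were among the 10 highest by CPM, had log2 values within 0.2 of 0 in both strains and did not pass. The 5 peptide genes under other symbols, pdf-1, pdf-2, ntc-1, capa-1 and snet-1, had no call either.

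Between the strains, 1 neuropeptide gene was higher and none lower in daf-2 worms at day 1, beside 1.14% and 0.611% of all tested genes. At day 4, 2 were higher and none lower (1.56% and 0.371%), at day 7 none was higher and 1 lower (1.1% and 0.994%), and at day 11 none passed (1.69% and 2.23%). flp-34 (WBGene00019975, chromosome V, 1027891 to 1033404, minus strand), a neuropeptide Y-related gene with a role in aversive olfactory learning, was the member that passed at day 1. It had 2.73, 3.02 and 2.19 CPM in daf-2 worms, against 0.504, 0.165 and 0.662 CPM in N2 worms, so the strains were well apart. The difference was 5.84-fold (log2 2.55 ± 0.42, SE, n = 3 and 3, edgeR adjusted p = 0.00103) and held without any single library (adjusted p 0.00158 to 0.00832). With only the 6 day 1 libraries in the fit the adjusted p was 0.0701. Within 100 kilobases of flp-34 on either side, 1 of 19 other tested genes differed at day 1. It was the cathepsin B family gene cpr-5, which was lower in daf-2 worms (-2.60 ± 0.52). At day 11, 2 of the 19 differed, cpr-5 and R09A1.3 (chromosome V, 1023780 to 1027074). R09A1.3 was higher in daf-2 worms at day 11 (1.196 ± 0.235, edgeR adjusted p = 0.00308). At days 1, 4 and 7 its values were 0.587, 0.377 and 0.475, with no call.

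At the later ages the flp-34 libraries of daf-2 worms lay above those of N2 worms by smaller margins. At day 4 it had 2.07, 2.60 and 0.961 CPM in daf-2 worms, against 0.607, 0.544 and 0.694 CPM in N2 worms (1.60 ± 0.41, edgeR adjusted p = 0.04). The day 4 call ended without daf-2 library 1 or 2 or N2 library 1, 2 or 3 (adjusted p up to 0.295). At day 7 it had 1.35, 1.70 and 1.37 CPM in daf-2 worms, against 0.795, 0.737 and 0.962 CPM in N2 worms (0.82 ± 0.40, adjusted p = 0.507). At day 11 it had 1.15, 1.00 and 1.64 CPM in daf-2 worms, against 0.410, 0.586 and 0.951 CPM in N2 worms (0.95 ± 0.40, adjusted p = 0.239). The strains did not overlap at any of the 4 ages, although only the first 2 passed. Within daf-2 worms flp-34 fell by 1.07 ± 0.38 between day 1 and day 11 (adjusted p = 0.0308, up to 0.111 without day 11 library 1 or 2 or day 1 library 1 or 2). In N2 worms the value was 0.53 ± 0.43 (adjusted p = 0.34).

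**Figure D4:**
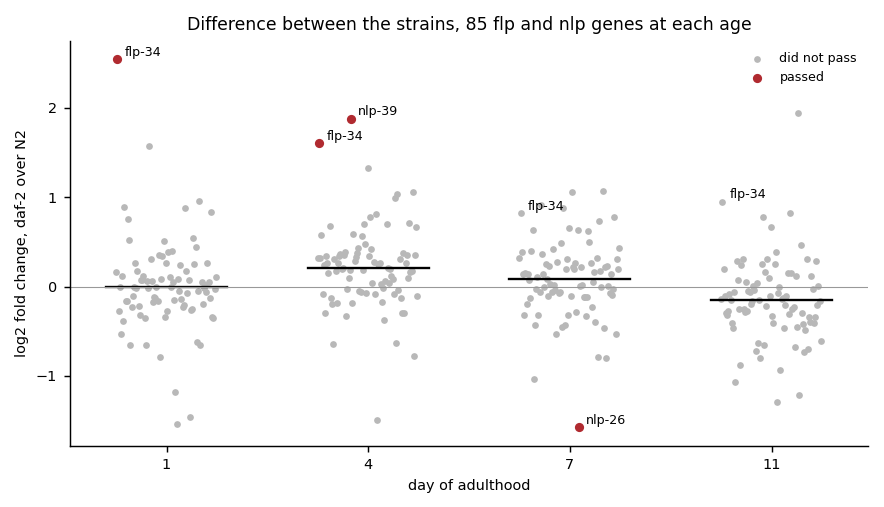
Log2 fold change of daf-2 over N2 worms for each of 85 neuropeptide genes at 4 ages, with the median as a black bar and genes that passed in red. flp-34 lies at 2.55 at day 1 and 0.95 at day 11, and no gene passed at day 11.

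Both nlp-39 and nlp-26 also differed between the strains, each passing at a single age without the block. nlp-39, the gene with the largest rise, was at 6.01, 11.9 and 10.02 CPM in daf-2 worms at day 4, against 2.62, 3.27 and 1.70 CPM in N2 worms (log2 1.88 ± 0.38, edgeR adjusted p = 0.00705). That call ended without daf-2 library 2 or N2 library 3 (adjusted p up to 0.0588). At day 1 nlp-39 had 0.219, 0.313 and 0.935 CPM in daf-2 worms, against 0.168, 0.0413 and 0.265 CPM in N2 worms. Most daf-2 values were thus already the higher ones, but the strains overlapped at these low counts and the difference did not pass. At day 7 the strains overlapped (0.42 ± 0.36, adjusted p = 0.829), and at day 11 the difference was -0.04 ± 0.35. nlp-26 was lower in daf-2 worms at day 7, at 1.69, 1.48 and 1.86 CPM, against 4.45, 3.30 and 7.25 CPM in N2 worms (-1.57 ± 0.40, adjusted p = 0.0362). The call ended without any 1 of daf-2 libraries 1, 2 and 3 and N2 libraries 1 and 3 (adjusted p up to 0.211). Its values at days 1, 4 and 11 were -1.18 ± 0.38, -1.49 ± 0.39 and -0.93 ± 0.41, and each passed with the block (adjusted p = 0.00257, 3.18e-04 and 0.0246). At day 4 the block also added flp-2 on the higher side (1.03 ± 0.37, adjusted p = 0.0337).

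At day 11 no neuropeptide gene passed by edgeR's test, and DESeq2 called 1. By edgeR 8 of the 85 had an unadjusted p under 0.05 (9.41%, beside 15.4% of all tested genes). With the block, calls over all tested genes rose from 655 to 1609, and 2 neuropeptide genes were higher and 3 lower in daf-2 worms. The higher ones, nlp-4 and nlp-51, were singled out after their values were seen. nlp-4 had 1.40, 1.27 and 0.715 CPM in daf-2 worms, against 0.381, 0.251 and 0.238 CPM in N2 worms (log2 1.94 ± 0.55, adjusted p = 0.0504 by edgeR, 0.0215 with the block, 0.0123 by DESeq2 and 0.0414 without daf-2 day 11 library 3). nlp-51 had 3.72, 3.21 and 3.82 CPM in daf-2 worms, against 2.34, 2.39 and 1.34 CPM in N2 worms (0.83 ± 0.31, adjusted p = 0.156, or 0.00973 with the block). The lower ones were flp-8, flp-32 and nlp-26 (-0.88 ± 0.36, -1.07 ± 0.35 and -0.93 ± 0.41). At day 1 the block added nlp-51 on the higher side and nlp-26 and nlp-59 on the lower side. Calls over all tested genes at day 1 rose from 293 to 663 with the block. The unadjusted count at day 1 was again 8 (9.41%, beside 7.88% of all tested genes). The median difference of the 85 genes was -0.01 at day 1, 0.21 at day 4, 0.08 at day 7 and -0.15 at day 11, beside -0.02, 0.01, 0.04 and 0.00 for all tested genes.

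**Figure D5:**
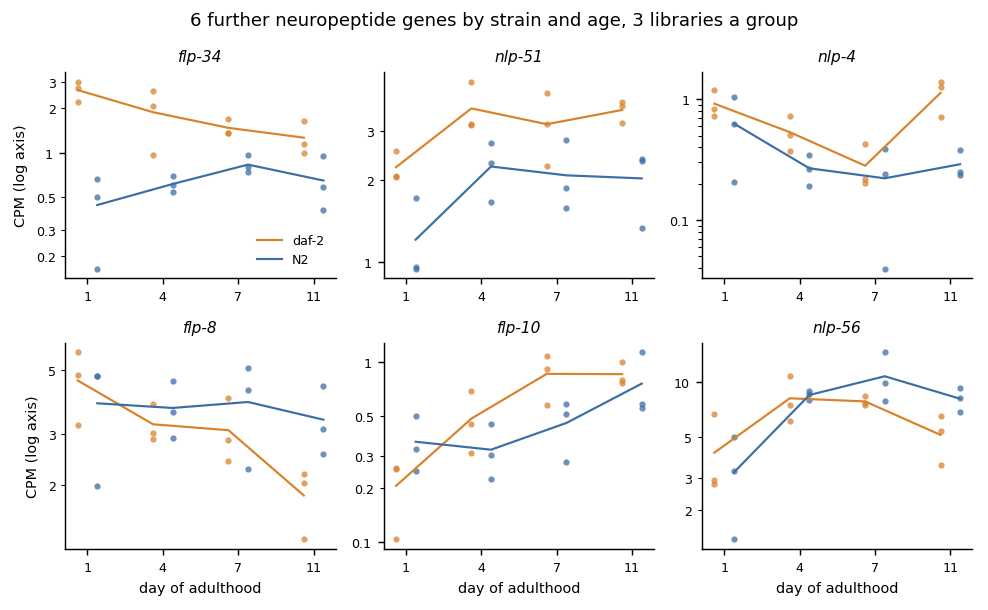
Level in each library (points, CPM on a log axis) and group mean (lines) of 6 neuropeptide genes by day of adulthood, daf-2 worms in orange left of N2 worms in blue. The daf-2 points of flp-34 lie above its N2 points at all 4 ages, and those of flp-8 lie between 1.3 and 2.18 CPM at day 11.

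The difference between the strains in their change by day 11 was tested directly. No neuropeptide gene passed by edgeR's test, beside 0.0838% of all tested genes higher and 0.264% lower, and DESeq2 called 0. By edgeR 4 of the 85 had an unadjusted p under 0.05 (4.71%, beside 7.79% of all tested genes). The 4 were nlp-8, nlp-39, flp-34 and flp-8, with differences of -1.69 ± 0.59, -1.61 ± 0.69, -1.60 ± 0.58 and -1.14 ± 0.50 on the log2 scale (daf-2 change minus N2 change), all at adjusted p of 0.336 or more. The nlp-39 difference compares a 39.2-fold rise in daf-2 worms with a 120-fold rise in N2 worms, and at day 1 nlp-39 had 8 counts or fewer per library in N2 worms.

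The genes that make, release and sense neuropeptides were set beside the precursors. Of 20 processing and dense core vesicle genes, 2 rose in daf-2 worms at day 11 and 5 rose and 1 fell in N2 worms (6 rises and 1 fall, and 7 and 1, with the block). Without the block, the rises were 10% of the list in daf-2 worms and 25% in N2 worms, beside 22.2% and 22.5% of all tested genes. The falls were 0% and 5% of the list, beside 18% and 19.2%. The vesicle gene ric-19 rose in both strains (log2 1.19 ± 0.23 in daf-2 and 1.42 ± 0.23 in N2 worms, edgeR adjusted p = 3.51e-04 and 5.17e-05). So did pamn-1, which encodes an enzyme that amidates peptide ends (0.58 ± 0.23 and 0.96 ± 0.23, adjusted p = 0.0472 and 0.00199), although its daf-2 call ended without day 11 library 1 or 3 or day 1 library 1 or 2. The main neuropeptide convertase and carboxypeptidase genes, egl-3 and egl-21, gave -0.22 ± 0.35 and 0.00 ± 0.32 in daf-2 worms and 0.28 ± 0.35 and 0.47 ± 0.32 in N2 worms, with no call. The convertase gene aex-5 fell in N2 worms (-1.0 ± 0.20) and gave -0.42 ± 0.20 in daf-2 worms (adjusted p = 0.0965, or 0.0227 with the block).

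Among neuropeptide receptor genes, rises outnumbered falls in both strains. Of 96 tested receptor genes, 29 rose and 5 fell in daf-2 worms and 30 rose and 3 fell in N2 worms at day 11 (32 and 8, and 40 and 5, with the block). Without the block, the rises were 30.2% of the list in daf-2 worms and 31.2% in N2 worms, beside 22.2% and 22.5% of all tested genes. The falls were 5.21% and 3.12% of the list, beside 18% and 19.2%. The median log2 change of the receptor genes was 0.59 in daf-2 worms and 0.69 in N2 worms, beside 0.09 and 0.10 for all tested genes. pdfr-1, the receptor of pigment dispersing factor peptides, averaged 31.9 CPM in daf-2 worms at day 11, against 10.5 CPM at day 1 (1.60 ± 0.34), and 23.5 against 7.86 CPM in N2 worms (1.59 ± 0.34). npr-41 rose by 2.66 ± 0.26 in daf-2 worms and 3.09 ± 0.27 in N2 worms, and frpr-3 by 2.28 ± 0.35 and 3.11 ± 0.36. sprr-2 fell in both strains (-1.48 ± 0.36 and -1.49 ± 0.35). Between the strains, npr-8 was higher in daf-2 worms at all 4 ages, by 2.10 ± 0.27 at day 1 and 1.23 ± 0.24 at day 11, with the day 7 call lost without N2 library 1.

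The 2 lists of neuronal markers differed in their counts. Of 16 pan-neuronal genes, 1 rose in daf-2 worms and 2 rose in N2 worms at day 11, and none fell. These rises were 6.25% and 12.5% of the list, beside 22.2% and 22.5% of all tested genes. Beside a median log2 change of 0.09 and 0.10 for all tested genes, that of the 16 was 0.05 and 0.13. Their summed level was 309 to 320 CPM over the daf-2 libraries of day 11, against 246 to 304 CPM at day 1, and 335 to 379 CPM in N2 worms at day 11, against 244 to 311 CPM at day 1. The synaptobrevin gene snb-1 rose in both strains (0.89 ± 0.12 in daf-2 and 1.03 ± 0.12 in N2 worms). Of 10 transmitter genes, 1 rose and 3 fell in daf-2 worms (10% and 30%, beside 22.2% and 18% of all tested genes). In N2 worms 2 of these 10 rose and 2 fell (20% and 20%, beside 22.5% and 19.2%). Their summed level was 503.6 to 672.5 CPM over the daf-2 libraries of day 11, against 767 to 1109 CPM at day 1, and 788 to 913 CPM in N2 worms at day 11, against 672 to 1005 CPM at day 1. Most of that sum came from the octopamine and tyramine synthesis genes tbh-1 and tdc-1. All 10 body muscle markers fell in both strains, beside 18% of all tested genes in daf-2 worms and 19.2% in N2 worms. The part of neuron content and of tissue make-up in the changes above was not tested.

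Library number moved with several neuropeptide genes. Within their group, the library numbered 1 was the highest of 3 in all 8 groups for flp-1, flp-3, flp-9, flp-11, flp-19, flp-24, nlp-9 and nlp-49. The library numbered 3 was the highest in all 8 groups for nlp-47 and nlp-60, and in 7 of 8 for nlp-24 and nlp-26. flp-11, for example, had 6.65 CPM in library 1 and 4.43 CPM in library 3 of daf-2 worms at day 11, and 7.03 and 2.97 CPM at day 1. Leaving out the 8 libraries numbered 3 gave 13 rises and 4 falls in daf-2 worms and 14 rises and 4 falls in N2 worms at day 11. In that fit 86 neuropeptide genes were tested. Calls over all tested genes rose from 6720 to 8901 in daf-2 worms and from 6959 to 8964 in N2 worms. These counts are therefore not to be set beside shares from all 24 libraries. What the numbers stand for is not given in the labels.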

How the data were processed

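RNA was measured in 24 libraries, 3 for each of 8 groups of strain and age. Expected counts per gene, not always whole, were made and deposited by the authors and were rounded here. The submitters' processing notes name RSEM 1.3.1, STAR 2.7.0e and the builds ce11 and WBcel235. Which step each served, and whether strand was used in counting, is not given in the sources used here. RSEM divides reads between similar transcripts, so counts of overlapping genes are uncertain. Of 46904 gene identifiers, 46817 matched the annotation of Ensembl release 115, which gave symbols and positions.

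Low genes were removed by filterByExpr over the 8 groups, leaving 16698 genes, 85 of them neuropeptide genes. After TMM scaling, group means were fitted to all 24 libraries at once with edgeR's quasi-likelihood model, and p-values were adjusted by Benjamini-Hochberg over all 16698. The square root of the common dispersion was 0.273. Each SE is the change divided by the square root of its F value. Libraries of a group differed beyond sampling noise (lowest median chi-square 2.43). The procedure was tested on simulated data.

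The members and lists were chosen with earlier results of these data known. Members named are, in each of 5 main comparisons, up to 8 rises and 8 falls that passed at a mean of 1 CPM or more, the 10 highest by CPM, and flp-1, flp-11, flp-13, flp-18, flp-21, nlp-12, nlp-40, nlp-24 and nlp-47. Others are marked in the text. No gene was found for the listed symbols rab-2 and rab-27.

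Replicate numbers come from the sample titles, and libraries with the same number deviated together from their group means. They were taken as paired in a comparison where each such correlation exceeded 0.1. This was so for N2 worms at day 11 (0.16 to 0.32) and for daf-2 worms at day 4, day 7 and day 11 (0.13 to 0.22 at day 11). It was also so between strains at each age, but not for N2 worms at days 4 and 7 or strain by age. The N2 worms missed the cut narrowly, with 0.085 to 0.433 at day 4 and 0.095 to 0.499 at day 7. For strain by age the range was -0.058 to 0.635. The alternatives were a replicate block; DESeq2 (Wald); scaling by RLE, by upper quartile or by library size; other low-count filters (none, or 1 CPM in 3 libraries); protein-coding genes alone; a fit to the compared groups alone; a prior count of 2; each library left out; and, chosen after seeing the data, leaving out the 8 libraries numbered 3. Software was Python 3.11.15 with pandas 2.3.3, numpy 2.4.6, matplotlib 3.10.9 and scipy 1.17.1, and R 4.3.3 with DESeq2 1.42.0, limma 3.58.1 and edgeR 4.0.16.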

Additional observations from a re-analysis of the deposited data

How the results depend on the processing

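In N2 worms the 14 rises at day 11 numbered 22 with library size alone and 23 with the replicate block, and the 4 falls numbered 7 with DESeq2, 7 with RLE factors and 9 with the block. In daf-2 worms the 6 falls numbered 3 with upper-quartile factors, 3 with library size alone and 13 with the block. Between the strains at day 1, the 1 gene higher became 0 with only the groups compared and 2 with the block, and the 0 lower became 1 with DESeq2 and 2 with the block. At day 11 the 0 higher became 1 with DESeq2, with RLE factors and with only the groups compared, and 2 with the block, and the 0 lower became 3 with the block. Leaving out 1 library gave 10 to 15 rises and 3 to 9 falls in N2 worms, 9 to 13 rises and 3 to 5 falls in daf-2 worms, and 0 to 1 genes higher in daf-2 at day 11. Fewer samples remain in those fits and in fits of only the groups compared; for the other moved counts the cause was not tested. Upper-quartile factors and library size alone moved the median of all genes at day 11 by 0.18 and 0.23 in N2 worms and by 0.20 and 0.20 in daf-2 worms. Some comparisons were not taken as paired, since their lowest correlation did not exceed 0.1. In these the block gave 4 rises and 6 falls for N2 worms at day 4 (3 and 2 without it), 12 and 4 at day 7 (6 and 4 without it), and 0 and 0 for strain by age. For the named genes, no change that passed turned direction under any alternative. Values that did not pass could change sign: in daf-2 worms at day 11, nlp-40, flp-14, flp-21 and nlp-12 did so with upper-quartile factors and with library size alone. The block changed 10 comparisons to passing and none to failing. Genes under 1 CPM rest on few counts, which limits the smallest change that could pass.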
